A study of Drosophila melanogaster with 25 samples.

Results

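Leg imaginal discs of ato-mutant Drosophila melanogaster larvae that carried UAS-ey were compared with leg discs of wild-type larvae. Each group had 3 Affymetrix Drosophila Genome 2.0 arrays, so the comparison used 6 of the 25 arrays of the study. Groups were read from the sample titles, and all 18769 probe sets other than the Affymetrix controls were tested. Leg discs of UAS-ey larvae without the ato mutation (3 arrays) were set beside them. Arrays that the comparison did not share came from UAS-ey and wild-type wing discs, from antennal discs titled Uey and from wild-type antennal discs, 3 of each, and 4 came from wild-type eye discs. All leg discs came from larvae of the last instar. UAS-ey is a transgene from which a GAL4 driver makes the Eyeless protein. The sources used here do not name the driver, the ato allele or the genotype of the wild-type larvae, nor say whether whole larvae or clones of cells were mutant.

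The ey gene encodes Eyeless, a Pax6 factor at the head of the retinal determination network, in which eya, so, dac and Optix act with and after it. Atonal (ato) is a proneural transcription factor that specifies the R8 photoreceptor, the founder cell of each ommatidium, and that also starts the chordotonal organs, the stretch receptors of the leg. The comparison asks how leg discs with both UAS-ey and the ato mutation differ from wild-type leg discs. No group had the ato mutation without UAS-ey. Effects of ey, of the mutation and of the stocks therefore cannot be told apart in it. It also shows which transcripts of tissues outside the disc epithelium differ between the 2 sets of dissected discs. In whole discs, a different share of cells of a type and a different amount of RNA per cell cannot be told apart.

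Values are the authors' deposited log2 signals, with the same lowest value of 6.91 on every array, called the floor here. Between 25.3% and 33.9% of the probe sets of an array lay at the floor. Where a group was at the floor on every array, the fold is a bound ("at least"), and its SE can understate the spread, since arrays at the floor add none. The number of arrays limits the precision. A probe set was called at an adjusted p under 0.05 in limma's moderated test, which used the spread of all 25 arrays and was adjusted over the 18769 probe sets. Log2 changes are ato-mutant UAS-ey minus wild type unless another pair is named.

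The 3 ato-mutant UAS-ey arrays differed more among themselves than the wild-type arrays did. The SD of the difference between 2 arrays over all probe sets was 0.254 to 0.393 for ato-mutant UAS-ey discs, against 0.150 to 0.180 for UAS-ey and 0.177 to 0.218 for wild-type leg discs. The limma fit took the same spread for every group, including the Uey antennal arrays (0.077 to 0.110). Its SEs and adjusted p-values can therefore be too small for the ato-mutant group. The log2 difference between the 3′ and 5′ GAPDH control probe sets, a measure of RNA integrity and amplification, was 2.96 ± 0.29 in ato-mutant UAS-ey, 2.13 ± 0.13 in UAS-ey and 1.84 ± 0.08 in wild-type leg discs (SD, n = 3 each). Between ato-mutant UAS-ey and wild type it did not overlap, at exact permutation p = 0.1, the smallest that 3 against 3 arrays allow. Its part in the results below was not tested. The leg markers Dll and Antp were measured well above the floor on all 9 leg disc arrays, at log2 signals of 11.77, 11.51 and 11.57 for Dll in ato-mutant UAS-ey discs, 12.19, 12.10 and 12.24 in UAS-ey discs and 12.08, 11.73 and 11.92 in wild-type discs. Antp does not tell leg from wing discs: a second probe set had means of 10.44 in wild-type leg and 10.20 in wild-type wing discs. The further leg marker Scr was lower in ato-mutant UAS-ey than in wild-type discs, as given below.

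Of the 18769 probe sets, 3968 (21.1%) were called, 2303 (12.3%) higher and 1665 (8.87%) lower in ato-mutant UAS-ey discs. At least 2-fold changes numbered 459 rises (2.45%) and 75 falls (0.4%). The split between rises and falls depended on the scaling: 58.0% of calls were higher in the deposited values, 36.1% after quantile normalization (1767 higher and 3123 lower) and 37.3% after centring each array on its median (1610 higher and 2701 lower). A fit to the 6 arrays alone called 1320 probe sets, 720 higher and 600 lower. Changes are given relative to the deposited scaling. Counts by gene list are to be read beside the 12.3% higher and 8.87% lower of all probe sets.

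The ey probe set did not follow the transgene. Its log2 signals were 12.56, 12.60 and 12.43 in ato-mutant UAS-ey discs, 10.36, 10.40 and 11.02 in UAS-ey discs and 12.34, 12.10 and 11.68 in wild-type discs. The ato-mutant arrays were above the wild-type ones without overlap, but the log2 change of 0.49 (SE 0.27, adjusted p = 0.24) was not called, and UAS-ey discs were lower than wild type by 1.45 on the log2 scale. This probe set therefore does not check which arrays came from UAS-ey larvae.

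The ato probe set read 7.85, 8.43 and 10.16 in ato-mutant UAS-ey discs, 10.57, 10.60 and 10.47 in UAS-ey discs and 9.12, 8.97 and 9.10 in wild-type discs, as log2 signals. Replicates 1 and 2 of the ato-mutant group lay below all wild-type arrays, and replicate 3 lay above them. The log2 change from wild type was -0.25 (SE 0.35, adjusted p = 0.80), and without replicate 3 it was -0.93 and called. Against UAS-ey discs the log2 difference was -1.73 (SE 0.35, adjusted p = 0.0014), with all 3 ato-mutant arrays lower. Since the allele is not given, a transcript may remain, and the ato signal does not check the label of replicate 3. On that array gl and lz, eye genes that were high in UAS-ey discs, were at the floor, as on the other 2 ato-mutant arrays.

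Of the 12 genes of the retinal determination list, 10 were measured (toe and hth were not), and 7 were called higher and 1 lower, against 12.3% and 8.87% of all probe sets. Their median log2 change was 0.94, against 0.00 for all probe sets. In the fit to 6 arrays 3 were called higher and 0 lower. eya, Optix, toy, so, dan, danr and tsh were the 7 called higher, and dac was lower. eya, a transcriptional coactivator and phosphatase, had log2 signals of 10.06, 10.86 and 11.70 in ato-mutant UAS-ey discs, 12.04, 12.07 and 12.09 in UAS-ey discs and 8.26, 8.22 and 7.98 in wild-type discs. Every ato-mutant array was above every wild-type array and below every UAS-ey array. The level was 6.58-fold that of wild type (log2 change 2.72, SE 0.23, adjusted p = 1.5e-07) and lower than in UAS-ey discs by 1.20 on the log2 scale (SE 0.23, adjusted p = 0.0011).

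Optix, a Six-family homeobox factor that can itself induce eye tissue, read 10.06, 10.58 and 11.25 in ato-mutant UAS-ey discs and 9.30, 9.23 and 9.34 in UAS-ey discs, while all 3 wild-type arrays were at the floor. It was at least 13.1-fold higher than in wild type (adjusted p = 9.1e-10). Here the ato-mutant discs exceeded the UAS-ey discs too, without overlap, by 1.34 on the log2 scale (SE 0.22, adjusted p = 0.00023). toy, the other Pax6 gene of the fly, which acts upstream of ey, had log2 signals of 9.92, 9.40 and 9.20 in ato-mutant UAS-ey discs, 8.60, 8.66 and 9.04 in UAS-ey discs and the floor in wild-type discs. It was at least 6.03-fold higher than wild type (adjusted p = 1.1e-09) and above UAS-ey discs by 0.74 on the log2 scale (adjusted p = 0.0020). The other 2 toy probe sets were at the floor on all 9 leg disc arrays, though their means were 10.95 and 8.85 in wild-type eye discs.

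so, the Six-family partner of eya, had log2 signals of 9.0, 9.62 and 10.29 in ato-mutant UAS-ey discs, 9.81, 9.60 and 9.64 in UAS-ey discs and 8.80, 8.61 and 8.50 in wild-type discs. It rose 2.0-fold over wild type (log2 change 1.0, SE 0.20, adjusted p = 0.0012), and the difference from UAS-ey discs was -0.04 on the log2 scale (adjusted p = 1.0). danr read 7.83, 8.59 and 9.38 in ato-mutant UAS-ey discs against 10.72, 10.69 and 10.67 in UAS-ey discs, with wild-type discs at the floor. dan read 7.30, 7.75 and 8.33 in ato-mutant UAS-ey discs against 9.56, 9.64 and 9.72 in UAS-ey discs, again with wild-type discs at the floor. Both genes encode related nuclear proteins of the eye and antennal fields. They were at least 3.22-fold and 1.84-fold higher than wild type (adjusted p = 2.3e-05 and 0.00044), yet below UAS-ey discs without overlap, with log2 differences of -2.09 and -1.85 (adjusted p = 3.0e-06 and 1.5e-07).

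dac, a nuclear factor of both the retinal network and the middle of the leg, was the 1 member called lower. Its log2 signals were 12.06, 12.08 and 12.13 in ato-mutant UAS-ey discs, 12.73, 12.64 and 12.73 in UAS-ey discs and 12.56, 12.30 and 12.55 in wild-type discs (log2 change -0.38, SE 0.09, adjusted p = 0.0066). No 2 of the 3 groups overlapped, with ato-mutant UAS-ey lowest and UAS-ey highest. tsh, a zinc-finger factor of the proximal leg and the early eye, was the seventh riser, at 11.72, 11.97 and 12.11 in ato-mutant UAS-ey discs against 11.47, 11.18 and 11.47 in wild-type discs (log2 change 0.56, adjusted p = 0.00034). eyg, a Pax gene of eye growth, changed by 0.25 on the log2 scale and was not called (adjusted p = 0.15; called without ato-mutant replicate 1, at 0.42). Within the ato-mutant group replicate 1 had the lowest eya, so, Optix, dan, danr and ato and the highest toy.

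**Figure D1:**
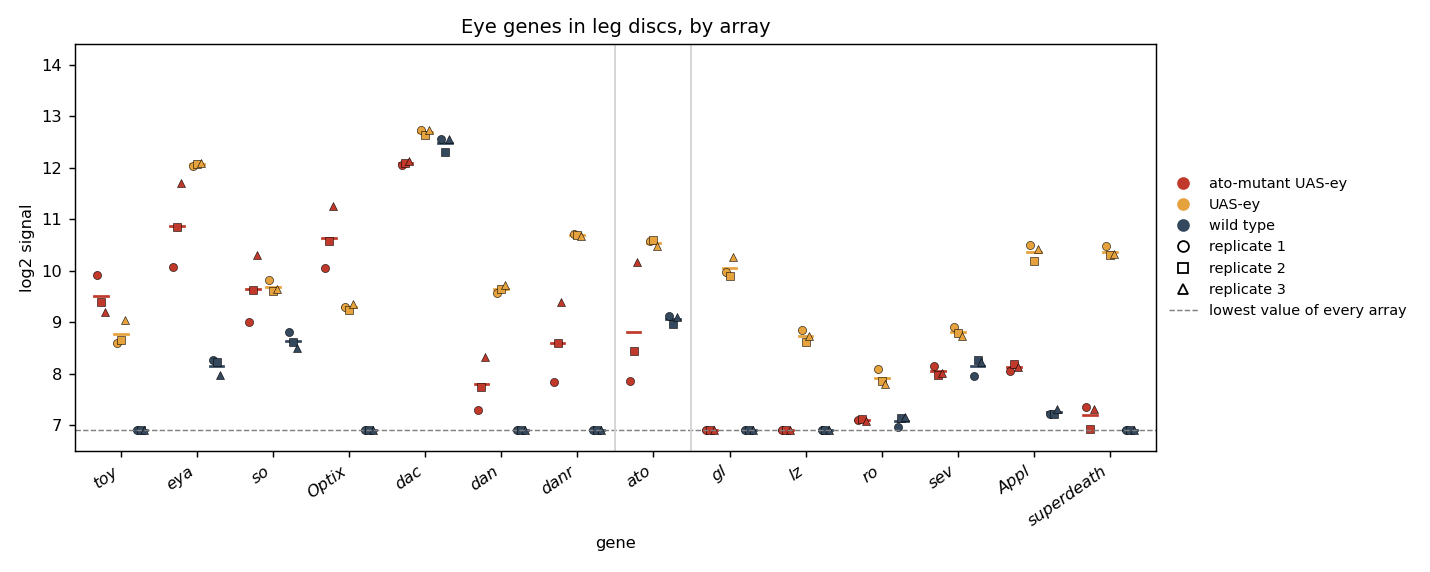
Log2 signal (vertical axis) of 14 genes on each array of ato-mutant UAS-ey, UAS-ey and wild-type leg discs, 3 arrays per group; marker shape gives the replicate, short bars are group means and the dashed line is the floor. eya, so, Optix, toy, dan and danr lie above wild type in ato-mutant UAS-ey discs, while gl and lz are at the floor in both groups and high only in UAS-ey discs.

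Several genes of photoreceptor differentiation did not follow the core network. gl, a zinc-finger factor needed for photoreceptors to mature, was at the floor on all 3 ato-mutant and all 3 wild-type arrays, against 9.97, 9.89 and 10.27 in UAS-ey discs. lz, a Runt-domain factor of cone and R7 cells, was likewise at the floor in both and read 8.84, 8.61 and 8.74 in UAS-ey discs. In ato-mutant UAS-ey discs they were at least 8.76-fold and 3.52-fold lower than in UAS-ey discs (adjusted p = 7.2e-10 and 6.3e-05). Over all probe sets, 23.5% were called between ato-mutant UAS-ey and UAS-ey discs, 14.5% higher and 9.03% lower.

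The same order held for some further eye genes. ro, a homeobox gene of R2 and R5 cells, read 7.10, 7.11 and 7.08 in ato-mutant UAS-ey discs, 8.09, 7.86 and 7.79 in UAS-ey discs and 6.95, 7.13 and 7.15 in wild-type discs. sev, the receptor of R7 fate, read 8.15, 7.97 and 8.01 in ato-mutant UAS-ey discs, 8.91, 8.78 and 8.72 in UAS-ey discs and 7.96, 8.26 and 8.22 in wild-type discs. For both genes the ato-mutant arrays lay within the range of the wild-type arrays and below all UAS-ey arrays. The log2 changes from wild type were 0.02 and -0.10 (adjusted p = 1.0 and 0.61), and those from UAS-ey discs -0.81 and -0.76 (adjusted p = 1.6e-06 and 3.6e-05). E(spl)mdelta-HLH, a Notch target of the furrow, changed by -0.09 from wild type and by -1.04 from UAS-ey discs on the log2 scale (adjusted p = 4.3e-11 for the second).

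superdeath, at log2 signals of at least 12.18 on every wild-type eye disc array, read 7.36, 6.92 and 7.31 in ato-mutant UAS-ey discs and 10.49, 10.30 and 10.32 in UAS-ey discs, with wild-type discs at the floor. The change from wild type was not called (0.28 on the log2 scale, adjusted p = 0.60), and the level was 9.03-fold below that of UAS-ey discs (adjusted p = 2.3e-07). Appl, a neuronal amyloid precursor protein homologue, read 8.05, 8.18 and 8.12 in ato-mutant UAS-ey discs, 10.50, 10.19 and 10.41 in UAS-ey discs and 7.22, 7.21 and 7.30 in wild-type discs. It was called higher than wild type by 0.87 on the log2 scale (SE 0.25, adjusted p = 0.016; not called without wild-type replicate 2) and lower than UAS-ey discs by 2.25. Neuronal Ank2 was at the floor in ato-mutant and wild-type discs and at 8.97, 8.61 and 8.69 in UAS-ey discs.

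Of all probe sets, 12.3% were called higher and 8.87% lower than wild type. Counted by lists, 1 gene of 11 for the furrow and R8 was called higher (da, by 0.36 on the log2 scale, not called without wild-type replicate 2) and 1 lower (sens). Of 17 photoreceptor and cone genes, 4 were called higher (oc, salm, ct and sina) and 5 lower (phyl, dve, B-H1, B-H2 and boss). Those 5 include factors that act in leg and bristle development as well. Compared with UAS-ey discs, 7 of the 17 were called higher and 8 lower, where 14.5% and 9.03% of all probe sets were. Of 12 pan-neuronal genes only Appl and nrv3 were called, both higher. elav, the general neuronal RNA-binding protein, changed by 0.50 on the log2 scale (adjusted p = 0.18), chp, a photoreceptor surface protein, by 0.45 (adjusted p = 0.29), and hh, the signal that drives the furrow, by -0.15 (adjusted p = 0.42). For chp, unlike gl and lz, all ato-mutant arrays lay above all UAS-ey arrays.

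Changes common to UAS-ey wing and Uey antennal discs were next found on arrays that the leg comparison did not share. A stock difference from wild type that these groups share cannot be told apart from an effect of ey. In UAS-ey wing discs 999 probe sets (5.32%) were called against wild type, 2.94% higher and 2.38% lower. In Uey antennal discs 2160 (11.5%) were called, 7.04% higher and 4.46% lower. At least 2-fold, 0.618% were higher and 0.144% lower in wing discs, and 1.13% higher and 0.309% lower in antennal discs. A set of 96 probe sets was higher at least 2-fold in both. Of these, 68 (70.8%) were called higher in ato-mutant UAS-ey leg discs, 2 lower and 26 not called, against 12.3% and 8.87% of all probe sets called in each direction. In UAS-ey leg discs, which share the wild-type arrays, 84 (87.5%) were called higher, against 9.02% of all probe sets higher and 10.3% lower there. In the direct contrast 36 of the 96 (37.5%) were lower in ato-mutant UAS-ey than in UAS-ey leg discs, 17 (17.7%) were higher and 43 were not called. Over all probe sets 9.03% were lower and 14.5% higher in that contrast, so the share higher was near that of all probe sets. The 2 called lower were dac and Cralbp, a gene of the CRALBP lipid-carrier family, and the group not called held gl, lz, superdeath, Mmp2, Tektin-C and Cyp4p2. The count of 68 lay between 60 and 68 under every alternative run.

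Several of the common set were among the largest named rises. chinmo, a BTB zinc-finger factor of juvenile cell identity, had log2 signals of 11.38, 11.46 and 11.60 in ato-mutant UAS-ey discs, 11.23, 10.96 and 11.62 in UAS-ey discs and 8.15, 7.78 and 8.38 in wild-type discs. It was 10.4-fold above wild type (log2 change 3.38, SE 0.32, adjusted p = 3.9e-07), and its difference from UAS-ey discs was 0.21 (adjusted p = 0.83). In wing and antennal discs the log2 changes were 2.61 and 2.76. Of its other probe sets, 1 changed by 3.48 and 1, near the floor, by 0.03. Nepl3, a neprilysin-like protease gene, read 10.18, 10.45 and 10.73 in ato-mutant UAS-ey discs, 11.03, 10.98 and 10.97 in UAS-ey discs and 7.53, 7.55 and 7.42 in wild-type discs, a 7.73-fold rise (adjusted p = 3.4e-12) that was 0.54 smaller on the log2 scale than in UAS-ey discs (adjusted p = 0.0027).

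Pxt, a peroxidase with cyclooxygenase-like activity, read 11.14, 11.43 and 11.88 in ato-mutant UAS-ey discs and 10.24, 10.31 and 10.25 in UAS-ey discs, from the floor in wild type, at least 23.8-fold higher. Cyp6a17, a cytochrome P450, read 11.34, 11.05 and 11.35 in ato-mutant UAS-ey discs and 10.26, 10.25 and 10.44 in UAS-ey discs, also from the floor, at least 20.1-fold higher. Hsc70-2, a heat shock cognate, read 10.52, 10.61 and 10.69 in ato-mutant UAS-ey discs, 9.48, 9.32 and 9.30 in UAS-ey discs and 6.96, 7.11 and 7.05 in wild-type discs, 11.8-fold higher. For these 3 genes the ato-mutant arrays were also above all UAS-ey arrays, with adjusted p = 3.9e-06, 4.5e-07 and 5.8e-07 for that difference. In wing discs they rose by 2.50, 1.64 and 1.81 on the log2 scale, and in antennal discs by 4.75, 3.31 and 2.13.

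Further members of the common set were named after their values were seen. fru, a BTB factor of sexual behaviour, changed by 2.15 in ato-mutant UAS-ey leg discs, mbl, a splicing regulator, by 2.04 and lola, a BTB factor of axon guidance, by 1.38, all on the log2 scale and called. qua, a villin-like actin regulator, changed by 3.06, and Galphaq, the G protein of phototransduction, by at least 1.81. Galphaq read 8.78, 8.47 and 8.92 in ato-mutant UAS-ey discs and 8.77, 8.80 and 8.93 in UAS-ey discs, with wild type at the floor, and the 2 groups overlapped.

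**Figure D2:**
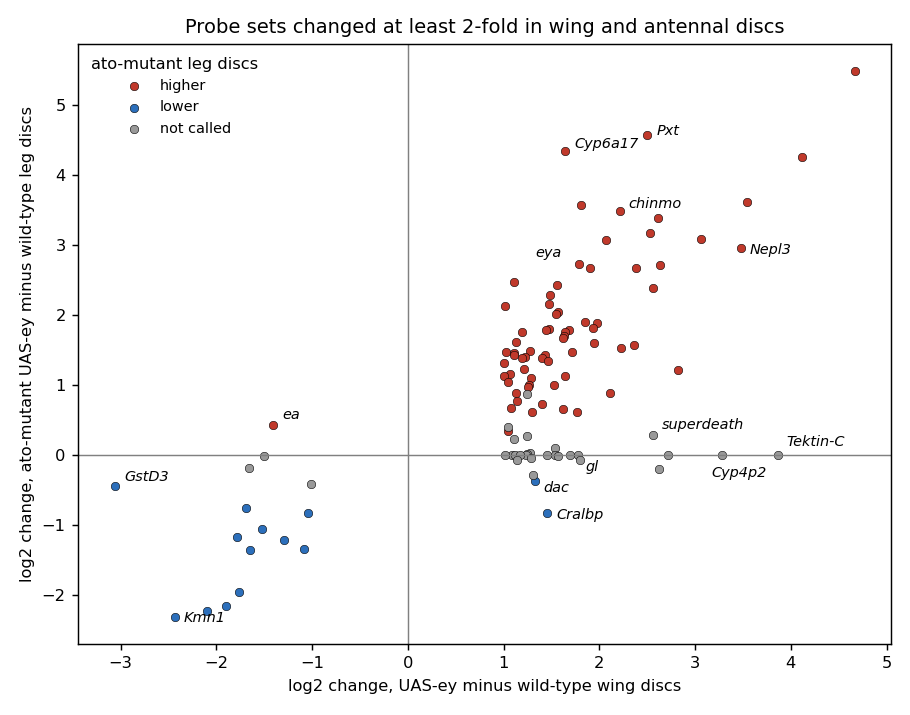
Log2 change in UAS-ey minus wild-type wing discs (horizontal axis) and in ato-mutant UAS-ey minus wild-type leg discs (vertical axis) for the 96 probe sets higher and the 16 lower at least 2-fold in both wing and antennal discs; colour gives the call in the leg comparison. The 68 red points on the right rose in ato-mutant leg discs too, and a row of grey points at 0, with gl, Cyp4p2 and Tektin-C, did not.

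Lower at least 2-fold in both discs were 16 probe sets, of which 12 were called lower in ato-mutant UAS-ey leg discs, 3 were not called and 1 (ea, the serine protease Easter) was higher. Over all probe sets 8.87% were called lower and 12.3% higher there. In the fit to 6 arrays 5 of the 16 were called lower. In UAS-ey leg discs without the mutation all 16 were called lower than wild type, against 10.3% of all probe sets. GstD3, a glutathione transferase, was among the 12. Its log2 signals were 10.72, 10.73 and 10.89 in ato-mutant UAS-ey discs, 8.16, 8.27 and 8.38 in UAS-ey discs and 11.48, 11.20 and 11.02 in wild-type discs. The ato-mutant discs were lower than wild type by 0.45 on the log2 scale (adjusted p = 0.00085), while UAS-ey leg discs were lower by 2.96, UAS-ey wing discs by 3.05 and Uey antennal discs by 3.64.

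In the reverse direction, 111 (24.2%) of the 459 rises of at least 2-fold in ato-mutant leg discs were also called higher in UAS-ey wing discs and 165 (35.9%) in Uey antennal discs, where 2.94% and 7.04% of all probe sets were called higher. For 289 (63.0%) neither disc was called higher. Of 116 rises of at least 2-fold in wing discs, 80 (69.0%) were called higher in the ato-mutant leg discs, and of 213 in antennal discs, 147 (69.0%). Of 267 probe sets (1.42%) at least 2-fold higher in wild-type eye than antennal discs, 76 (28.5%) were called higher in ato-mutant leg discs. The matching share of all probe sets was 12.3% for each of these lists. Most of the rises in ato-mutant leg discs were therefore not called higher in the other 2 discs. The shares that were, 24.2% and 35.9%, still exceeded the 2.94% and 7.04% of all probe sets. The change itself differed between ato-mutant leg and UAS-ey wing discs for 6.63% of all probe sets.

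The secreted signals upd1 and Ilp8 were higher in the mutant discs. upd1, a ligand of the JAK/STAT pathway that promotes eye growth, read 9.63, 9.79 and 10.58 in ato-mutant UAS-ey discs, 10.55, 10.56 and 10.83 in UAS-ey discs and 8.03, 7.74 and 7.91 in wild-type discs. It was 4.31-fold above wild type (log2 change 2.11, SE 0.16, adjusted p = 2.8e-08) and below UAS-ey discs by 0.64 on the log2 scale (adjusted p = 0.0068). Its receptor dome changed by 0.58 and the short receptor et by 0.53 (adjusted p = 0.0019 and 0.010). The transcription factor Stat92E was not called (0.25, adjusted p = 0.15), and upd2 was at the floor on all 9 leg disc arrays.

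Ilp8, the relaxin-like peptide by which damaged discs delay metamorphosis, read 8.87, 8.92 and 9.54 in ato-mutant UAS-ey discs and 10.33, 10.46 and 10.41 in UAS-ey discs, with wild type at the floor. It was at least 4.58-fold above wild type (adjusted p = 2.1e-10) and lower than UAS-ey discs by 1.29 on the log2 scale, without overlap in either case. Of 10 genes of cell death and stress 5 were called higher, against 12.3% of all probe sets. Among them were puc, the phosphatase induced by JNK signalling (0.80, adjusted p = 0.0042), and skl, a reaper-family death gene (at least 1.90-fold, adjusted p = 0.0093). grnd, the receptor of Eiger, was lower by 0.76 (adjusted p = 0.0016). ftz-f1, a nuclear receptor of the ecdysone cascade, rose by 2.42 on the log2 scale (adjusted p = 1.2e-05), by 2.01 in UAS-ey leg discs, and by 1.56 and 1.80 in wing and antennal discs. Its other probe set, at the floor in wild-type leg discs, rose by at least 1.33, with a wing change of 0.58 that was not called.

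Of all probe sets, 8.87% were called lower and 12.3% higher. Of 10 proneural and sensory precursor genes, 5 were called lower (ac, sc, ase, neur and amos) and 1 higher (pnr). Without wild-type replicate 2 only 3 were called lower. ac and sc, the proneural factors of external bristles, were lower both with and without the ato mutation. ac read 8.70, 9.05 and 8.89 in ato-mutant UAS-ey discs, 8.93, 8.83 and 8.95 in UAS-ey discs and 10.13, 10.31 and 9.78 in wild-type discs. sc read 9.89, 10.21 and 10.28 in ato-mutant UAS-ey discs, 10.33, 10.10 and 10.08 in UAS-ey discs and 11.27, 11.31 and 10.98 in wild-type discs. Both UAS-ey groups overlapped each other and lay below wild type. The log2 changes were -1.19 and -1.06 (adjusted p = 2.7e-07 and 3.3e-06), and the differences from UAS-ey discs -0.02 and -0.04. ase, expressed in the precursors, followed them, with -0.59 and a difference of -0.02 (not called without wild-type replicate 2).

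Other genes of sensory organs and photoreceptors, from this list and others, were lower in ato-mutant UAS-ey discs than in both other groups. sens, the zinc-finger factor that sustains proneural activity in precursors and R8 cells, read 7.15, 7.58 and 7.08 in ato-mutant UAS-ey discs, 8.58, 8.31 and 8.47 in UAS-ey discs and 8.80, 8.43 and 8.72 in wild-type discs. It was 2.60-fold below wild type (log2 change -1.38, SE 0.15, adjusted p = 2.8e-06) and below UAS-ey discs by 1.18 on the log2 scale (adjusted p = 2.0e-05). phyl, an adaptor of precursor and photoreceptor fate, read 7.83, 7.78 and 7.31 in ato-mutant UAS-ey discs, 8.93, 8.95 and 8.90 in UAS-ey discs and 8.79, 8.66 and 8.52 in wild-type discs. neur, a ubiquitin ligase for Notch ligands in precursors, read 9.20, 9.20 and 9.46 in ato-mutant UAS-ey discs, 9.99, 10.01 and 10.22 in UAS-ey discs and 10.03, 9.95 and 10.06 in wild-type discs. In each of the 3 genes the ato-mutant arrays were below both other groups.

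phyl and neur changed by -1.01 and -0.73 from wild type and by -1.28 and -0.79 from UAS-ey discs, on the log2 scale. The BarH homeobox genes B-H1 and B-H2, of distal leg and sensory cells, changed by -0.82 and -0.79 from wild type and by -0.83 and -0.74 from UAS-ey discs. ss, a bHLH-PAS factor of antenna and distal leg, read 7.32, 6.95 and 6.91 in ato-mutant UAS-ey discs, 8.06, 8.13 and 8.45 in UAS-ey discs and 8.36, 7.70 and 7.92 in wild-type discs, a change of -0.93 (adjusted p = 5.9e-05). kirre, an adhesion protein of fusing muscle cells, changed by -0.77, though its other probe set changed by -0.14 and was not called. E(spl)m4-BFM, a Notch target of precursors, changed by -0.51. Of 12 Notch and E(spl) genes 1 was called higher and 3 lower (7 lower after quantile normalization), and of 10 genes of EGF receptor signalling 0 were called higher and 3 lower, against 8.87% of all probe sets called lower. limma called 0 of the 12 measured genes of chordotonal organs and their cilia (2 at unadjusted p under 0.05), and at most 1 in any alternative run.

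**Figure D3:**
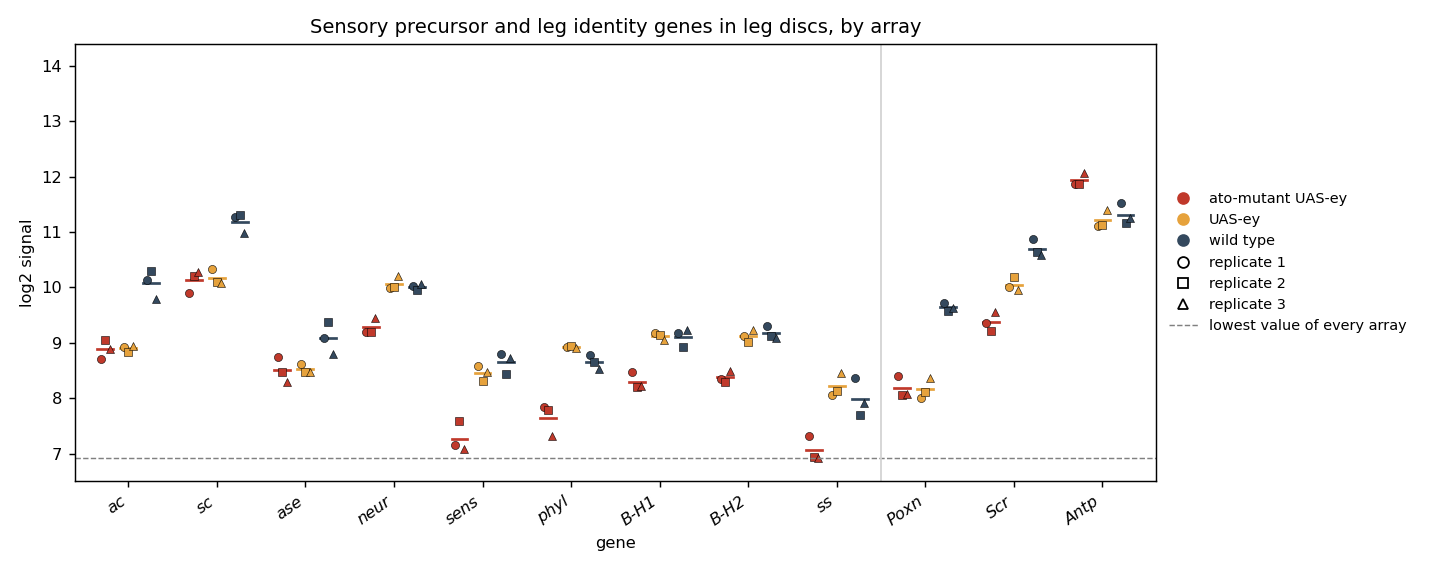
Log2 signal (vertical axis) of 12 genes on each array of ato-mutant UAS-ey, UAS-ey and wild-type leg discs, 3 arrays per group; marker shape gives the replicate and bars are group means. ac, sc, ase and Poxn are low in both UAS-ey groups, and neur, sens, phyl, B-H1, B-H2 and ss are low only in the ato-mutant one among these 3 groups.

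Of 19 measured leg identity genes, 1 was called higher and 8 lower, against 12.3% and 8.87% of all probe sets. Their median log2 change was -0.25. The 8 became 5 without ato-mutant replicate 2 or without wild-type replicate 3, and 2 in the fit to 6 arrays. Summed over the list, the linear signal was 38145 to 41246 in ato-mutant UAS-ey discs, 36960 to 40138 in UAS-ey discs and 42197 to 48306 in wild-type discs, so both UAS-ey groups lay below wild type. Poxn, a Pax gene that sets chemosensory bristle identity, read 8.40, 8.06 and 8.08 in ato-mutant UAS-ey discs, 8.01, 8.12 and 8.36 in UAS-ey discs and 9.71, 9.57 and 9.63 in wild-type discs, 2.75-fold below wild type (adjusted p = 8.1e-10) and level with UAS-ey discs (0.02 on the log2 scale). bab1, a BTB factor of distal leg segments, changed by -0.72 (adjusted p = 0.00028).

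The Hox genes of the thorax moved in opposite directions. Scr, the Hox gene of the first leg pair, read 9.35, 9.21 and 9.56 in ato-mutant UAS-ey discs, 10.01, 10.18 and 9.95 in UAS-ey discs and 10.87, 10.64 and 10.59 in wild-type discs. The 3 groups did not overlap, and the change from wild type was -1.33 (SE 0.09, adjusted p = 3.4e-09). Antp, active in all leg pairs and most in the second, read 11.87, 11.87 and 12.06 in ato-mutant UAS-ey discs, 11.11, 11.14 and 11.40 in UAS-ey discs and 11.53, 11.17 and 11.25 in wild-type discs, a change of 0.62 (adjusted p = 4.6e-05). Of its other probe sets, 1 changed by 0.65 and 1 was at the floor on all 6 arrays of the comparison. The labels do not say which leg pairs were dissected, and their share in each group was not tested. Of the other Hox genes measured, pb was at the floor on all 9 arrays and Dfd was not called.

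Wing and notum genes differed between the ato-mutant arrays. vg, the selector gene of the wing, read 8.10, 10.35 and 10.31 in ato-mutant UAS-ey discs, 8.07, 6.91 and 6.91 in UAS-ey discs and 8.87, 8.77 and 8.47 in wild-type discs. Replicates 2 and 3 of the ato-mutant group were above every other leg array and replicate 1 below wild type, and the change was not called (0.88, adjusted p = 0.15). Dr and ap, dorsal wing and notum factors, were also lowest in ato-mutant replicate 1, at 8.49 and 9.0, against 10.13 and 10.39 in replicate 2. mirr, an Iroquois homeobox gene, read 7.82, 9.25 and 9.47 in ato-mutant UAS-ey discs, 7.12, 6.91 and 6.91 in UAS-ey discs and 6.91, 6.94 and 6.91 in wild-type discs, a 3.80-fold rise (adjusted p = 2.6e-05). Its other probe set rose 1.67-fold (adjusted p = 0.0041).

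The wing list as a whole had 2 genes called higher and 6 lower of 13, against 12.3% and 8.87% of all probe sets. Without replicate 1 of the ato-mutant group it had 5 higher and 6 lower. Its summed linear signal was 12233 in ato-mutant replicate 1 and 16654 and 17602 in the other two, 13038 to 14127 in UAS-ey discs and 14133 to 15707 in wild-type discs. The lower genes included Doc1 (-1.01), ara (-0.63), nub (-0.89) and caup (-0.84). In the fit to 6 arrays no gene of this list was called.

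Some transcripts of salivary gland, fat body and blood cells were among the largest rises, though the defining salivary gland markers were not. The new glue genes ng1, ng2 and ng3 of the salivary gland were 3 of the 5 largest rises of genes with a name of their own. ng1 read 12.83, 12.55 and 10.31 in ato-mutant UAS-ey discs and ng2 12.79, 12.77 and 9.95, while all UAS-ey and wild-type leg arrays were at the floor for both. They were at least 31.6-fold and 30.4-fold higher than wild type (adjusted p = 3.1e-08 and 3.3e-07). ng3 read 12.15, 12.02 and 11.33 in ato-mutant UAS-ey discs, 7.55, 7.37 and 7.19 in UAS-ey discs and 7.04, 7.25 and 7.25 in wild-type discs, 25.2-fold higher (adjusted p = 1.3e-13).

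Of the other glue genes of the gland, Sgs3 and Sgs5bis were called lower. Only 1 gene of the list was called lower in 5 of the 6 fits without 1 array, and 0 in the fit to 6 arrays. Sgs3 read 9.58, 9.25 and 9.15 in ato-mutant UAS-ey discs, 8.09, 7.40 and 7.53 in UAS-ey discs and 10.87, 10.73 and 10.12 in wild-type discs, lower than wild type by 1.25 on the log2 scale (SE 0.42, adjusted p = 0.044). Sgs5bis was at the floor in both UAS-ey groups, against 9.43, 10.30 and 8.37 in wild-type discs, at least 5.48-fold lower (adjusted p = 0.0058). Sgs7 and Sgs8 changed by -1.13 and -1.61 and were not called (adjusted p = 0.18 and 0.090). The defining markers of the gland, Sgs3, Sgs7 and Sgs8, thus had changes opposite to those of the ng genes. Over the list of 11 measured genes 3 were called higher and 2 lower, against 12.3% and 8.87% of all probe sets, and the median log2 change was -0.26. The summed linear signal was 29077, 24392 and 9626 in ato-mutant UAS-ey discs, 2871 to 3817 in UAS-ey discs and 11213 to 18018 in wild-type discs, so the ato-mutant and wild-type ranges overlapped. Replicate 3 had the lowest sum of the ato-mutant arrays.

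Fat body genes were high on all 3 ato-mutant arrays. Of 7 measured, 4 were called higher and none lower, against 12.3% and 8.87% of all probe sets. The median log2 change was 2.63. The summed linear signal was 37810 to 51271 in ato-mutant UAS-ey discs, 4856 to 12931 in UAS-ey discs and 6628 to 10306 in wild-type discs. Tsf1, transferrin, read 11.91, 11.81 and 11.58 in ato-mutant UAS-ey discs, 9.90, 10.23 and 10.42 in UAS-ey discs and 9.18, 9.21 and 9.0 in wild-type discs, 6.21-fold higher (adjusted p = 5.2e-08). Fbp2, a larval fat body protein, read 13.81, 13.07 and 12.93 in ato-mutant UAS-ey discs, 8.74, 11.64 and 11.96 in UAS-ey discs and 10.04, 10.01 and 10.16 in wild-type discs, 9.20-fold higher (adjusted p = 0.0016). apolpp, the lipophorin precursor, changed by 3.20 with an SE of 1.0 (adjusted p = 0.028), and Mtk, an antimicrobial peptide, by 1.48 (adjusted p = 0.037).

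The calls of apolpp and Mtk were lost when some single arrays were left out, the list had 2 or 3 calls without any 1 array, and it had 3 to 6 under the other alternatives. The storage protein Lsp2, a defining marker, read 13.94, 13.75 and 13.71 in ato-mutant UAS-ey discs, 10.03, 11.82 and 11.80 in UAS-ey discs and 11.27, 10.40 and 11.41 in wild-type discs. Its arrays did not overlap with wild type, but the change of 2.78 was not called (SE 0.97, adjusted p = 0.051). Fbp1, the Lsp receptor, changed by 1.36 and was not called (adjusted p = 0.35). Tsf1 had 2 further probe sets, with changes of 0.80 and, at the floor, 0.00.

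Of 13 blood cell genes 10 were called higher and 0 lower, against 12.3% and 8.87% of all probe sets. Their median log2 change was 1.96. Hml, hemolectin, the clotting protein of plasmatocytes, read 11.88, 9.85 and 11.83 in ato-mutant UAS-ey discs, 8.24, 8.43 and 8.12 in UAS-ey discs and 8.30, 7.81 and 7.68 in wild-type discs, 9.54-fold higher (log2 change 3.25, SE 0.35, adjusted p = 2.5e-06). PPO1, the prophenoloxidase of crystal cells, read 12.32, 9.19 and 11.60 in ato-mutant UAS-ey discs, 7.39, 7.79 and 8.21 in UAS-ey discs and 9.04, 8.33 and 7.58 in wild-type discs, 6.57-fold higher (adjusted p = 0.0019). srp, the GATA factor of blood cells and fat body, read 9.46, 8.02 and 9.61 in ato-mutant UAS-ey discs and was at the floor in both other groups, at least 4.34-fold higher (adjusted p = 4.7e-06). In each of the 3 genes replicate 2 was the lowest ato-mutant array and still above every wild-type array.

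The summed linear signal of the blood cell list was 40428, 19813 and 31484 in ato-mutant UAS-ey discs, 9911 to 11064 in UAS-ey discs and 11701 to 15829 in wild-type discs. The defining markers Pxn and NimC1 changed by 2.07 and 1.14 on the log2 scale, and both were called. Leaving out any 1 array of the 2 groups left 10 called, whereas the fit to 6 arrays, which has only their own spread, called 1. The salivary, fat body and blood cell sums of the ato-mutant group were each highest in replicate 1.

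Muscle, tracheal and glial genes had smaller changes. Of all probe sets, 12.3% were called higher and 8.87% lower. Of 12 contractile muscle genes 4 were called higher: Mlc1 (1.38), Tm2 (1.11), up (0.86) and Mf (0.57), on the log2 scale, while the flight muscle markers fln and TpnC4 were at the floor on all 9 leg arrays and Act88F at or near it. Of 8 muscle precursor genes 3 were called lower: kirre, lbl and htl (htl not in several leave-outs). Of 6 tracheal genes, Gasp, serp and uif were called higher and vvl lower. Of the same list, 3 were called higher in UAS-ey leg, 3 in UAS-ey wing and 2 in Uey antennal discs. Over all probe sets 9.02%, 2.94% and 7.04% were called higher in these. The other vvl probe set changed by 0.04 and was not called, and the other uif probe set was at the floor on all 9 leg arrays. Of 7 glial genes, moody (1.14) and Mdr65 (1.07), both of the blood-brain barrier, and loco were called higher and Gli lower, while the pan-glial factor repo was not called (0.22, adjusted p = 0.41).

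Midgut proteases were high on 1 array only. Jon65Aiii read 13.01, 7.48 and 8.12 in ato-mutant UAS-ey discs, 8.03, 7.88 and 7.63 in UAS-ey discs and 7.51, 7.44 and 7.65 in wild-type discs. Jon25Bii read 10.97, 7.39 and 7.67 in ato-mutant UAS-ey discs, against 7.82, 7.67 and 7.68 in wild-type discs. Only replicate 1 stood out, and its midgut list summed to 11524 in linear signal, against 1395 to 1483 in wild-type discs. limma called 0 of the 8 genes (1 at unadjusted p under 0.05), and the midgut factor GATAe was near the floor on all 9 leg arrays. Of the 7 genes of ecdysone synthesis, which mark the ring gland, limma called 0 (0 at unadjusted p under 0.05). The part that attached tissues played in the other changes was not tested.

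**Figure D4:**
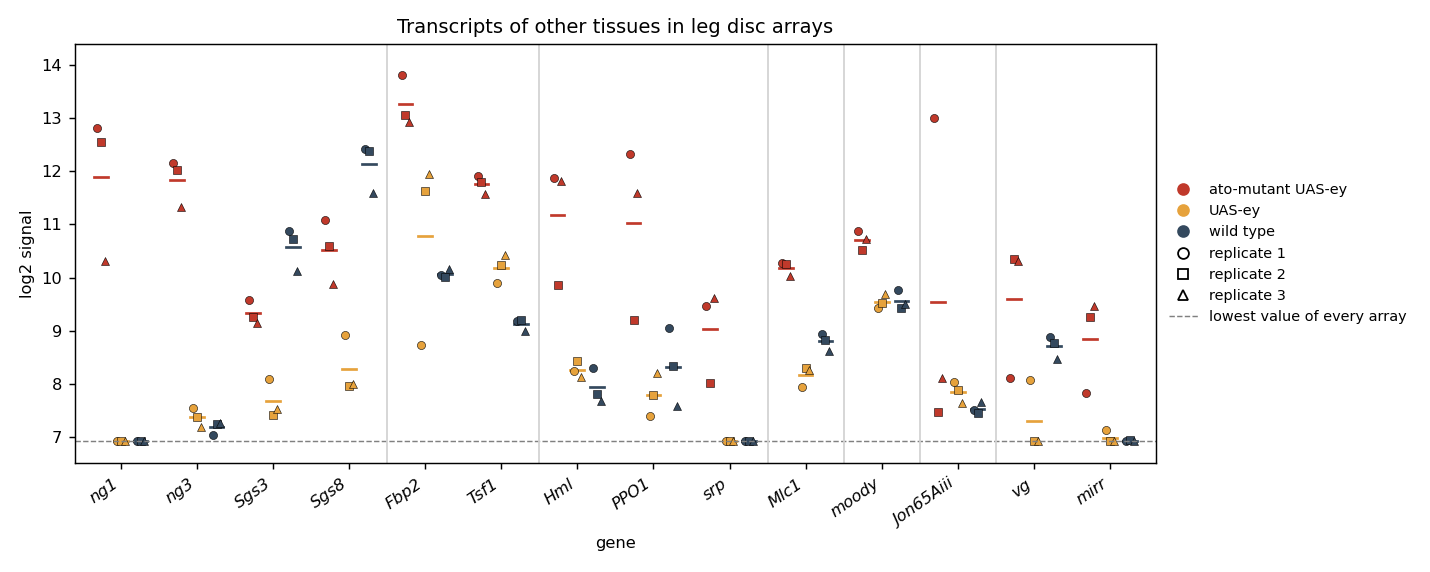
Log2 signal (vertical axis) of 14 genes of salivary gland, fat body, blood cells, muscle, glia, midgut and wing (left to right, between grey lines) on each array of ato-mutant UAS-ey, UAS-ey and wild-type leg discs, 3 arrays per group; marker shape gives the replicate and bars are group means. The ato-mutant replicates differ from each other, with replicate 1 alone high in Jon65Aiii and low in vg and replicate 2 lowest in Hml and PPO1.

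Other large rises were of secreted and metabolic genes, several of them known from fat body and haemolymph. IM33, an immune-induced peptide, read 12.18, 12.12 and 11.49 in ato-mutant UAS-ey discs, 6.95, 7.75 and 8.17 in UAS-ey discs and the floor in wild-type discs, at least 32.4-fold higher (adjusted p = 8.2e-12). Miox, myo-inositol oxygenase, read 12.82, 12.50 and 11.08 in ato-mutant UAS-ey discs, 7.20, 7.98 and 7.85 in UAS-ey discs and 7.41, 7.82 and 6.91 in wild-type discs, 27.0-fold higher. fon, a clotting protein, was 17.9-fold higher, Sp7, a serine protease of the melanization cascade, 13.9-fold, Nplp2, a neuropeptide-like precursor, at least 13.6-fold, Irc, an immune-regulated catalase, 11.4-fold and Ag5r, a secreted CAP-family protein, 10.6-fold.

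Of these 7 genes only Sp7 was called in UAS-ey wing discs (0.43 on the log2 scale, adjusted p = 0.016) or in Uey antennal discs (1.18, adjusted p = 1.8e-07). Uncharacterized genes rose as much or more. CG14265 was 49.4-fold, CG18649 at least 48.0-fold and CG10918 at least 30.7-fold above wild type, and their log2 changes in UAS-ey leg, UAS-ey wing and Uey antennal discs lay between -0.10 and 0.11. regucalcin, a calcium-binding protein of fat body, read 13.76, 13.23 and 12.86 in ato-mutant UAS-ey discs, 9.0, 10.57 and 9.21 in UAS-ey discs and 10.45, 10.22 and 9.76 in wild-type discs, a change of 3.14 (adjusted p = 7.6e-06), although its other probe sets changed by 0.80 and 0.00.

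The largest named fall was of Hrb87F, an hnRNP protein that binds nuclear transcripts. It read 9.30, 9.50 and 9.63 in ato-mutant UAS-ey discs, 12.76, 12.71 and 12.79 in UAS-ey discs and 12.78, 12.54 and 12.71 in wild-type discs, 9.22-fold below wild type (log2 change -3.20, SE 0.08, adjusted p = 5.6e-15). The 3 ato-mutant arrays stood alone, and the changes were 0.08 in UAS-ey leg discs, -0.07 in wing discs and -0.15 in antennal discs.

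Several named genes were lower in leg, wing and antennal discs with the ey transgene or the title Uey. Kmn1, a kinetochore protein, read 8.92, 8.96 and 9.03 in ato-mutant UAS-ey discs, 9.21, 9.18 and 9.22 in UAS-ey discs and 11.46, 11.36 and 11.02 in wild-type discs, 4.97-fold below wild type (adjusted p = 1.9e-10). vis, a TGIF-type homeobox gene, was at the floor in both UAS-ey groups and at 9.43, 9.09 and 8.90 in wild-type discs, at least 4.68-fold lower. The transcription elongation factor spt4 changed by -1.96, the zinc transporter gene Zip102B by -2.16 and Alms1a, a centriole protein gene, by -1.35. In UAS-ey wing discs these 5 changed by -2.43, -2.09, -1.77, -1.90 and -1.09, and in Uey antennal discs by -1.90, -2.21, -1.81, -2.09 and -1.14. The genetic backgrounds of the UAS-ey and wild-type stocks are not given, and background and ey cannot be told apart for genes that differ alike in all discs.

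The remaining named falls were smaller. Those of the secreted cuticle proteins TwdlE (-1.62) and Cpr65Ec (-1.69), of MED11, a subunit of Mediator (-1.32), and of Lipt1, a lipoyl transferase (-1.39), were called. wbl, a chaperone homologue of dorsal-ventral patterning, changed by -1.56 and by -2.41 in UAS-ey leg discs. CG6912 (-1.37), CG9171 (-1.24) and CG10005 (-1.24) were the largest falls of uncharacterized genes.

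Among gene families, set against 12.3% higher and 8.87% lower over all probe sets, 18 of 83 cytochrome P450 genes were called higher and 8 lower (17 and 13 after quantile normalization), with Cyp28a5 at least 8.29-fold and Cyp9f2 4.83-fold above wild type. Of 34 glutathione transferases, 4 were called higher, among them GstE1 (1.21 on the log2 scale), and 9 lower, among them GstT3 (-0.94). The cuticle Cpr family had 10 higher and 1 lower of 66, but 4 to 12 higher when single arrays were left out. Of 66 respiratory chain genes 21 were lower and 1 higher, with a median change of -0.18, and of 41 ribosomal protein genes 9 were lower and 1 higher, with a median of -0.09. Without 1 array, the counts of lower genes ranged over 8 to 23 (8 without wild-type replicate 2) and 3 to 12 (3 without ato-mutant replicate 2). Centring each array shifted the median of all probe sets by -0.08 on the log2 scale, and after centring 33 respiratory chain genes were called lower and 0 higher, against 2 lower in the fit to 6 arrays. Of 11 cell cycle genes, 4 were called higher, Orc1, Mcm5, Mcm6 and RnrL, by 0.23 to 0.57, and after centring 1.

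**Figure D5:**
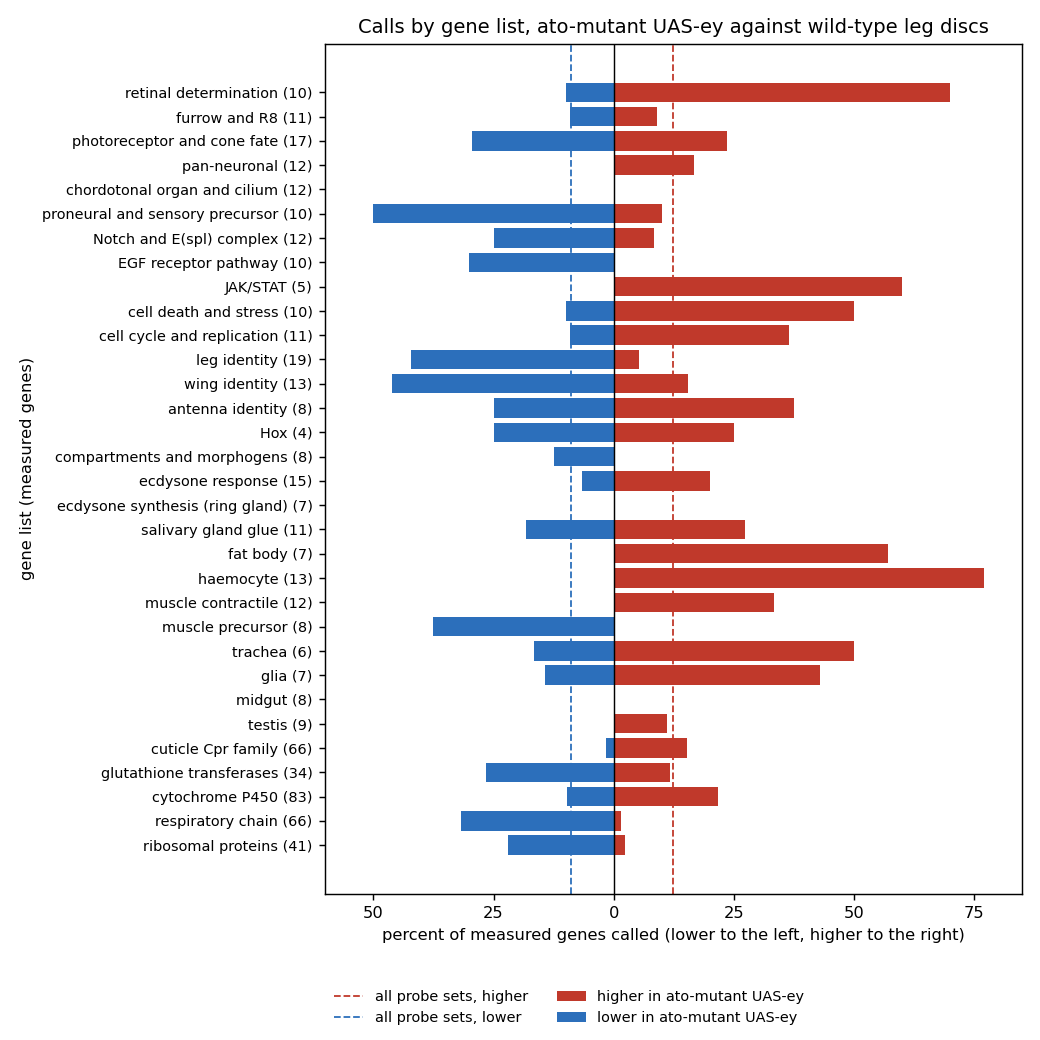
Percent of the measured genes of each list (vertical axis, number measured in brackets) that were called higher (red, to the right) or lower (blue, to the left) in ato-mutant UAS-ey than in wild-type leg discs; dashed lines give the same percent over all probe sets, 12.3 and 8.87. Retinal determination, JAK/STAT, fat body and blood cell lists reach furthest to the right, and proneural, wing and leg identity lists furthest to the left.

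The largest differences between the 2 UAS-ey leg groups, among genes with a name of their own, were as follows. Higher in ato-mutant than in UAS-ey discs were ng1, ng2, ng3, Miox, IM33 and regucalcin, by 3.69 to 4.98 on the log2 scale. Lower were Tektin-C, Hrb87F, superdeath, gl, Cpr49Ah and Cyp4p2. Tektin-C, a protein of sperm tails and cilia, was at the floor in ato-mutant and wild-type leg discs and at 10.78, 10.64 and 10.76 in UAS-ey leg discs, at least 14.1-fold lower in the ato-mutant discs (adjusted p = 2.0e-21), and it rose by 3.86 in wing and 3.87 in antennal discs. Cyp4p2 was at the floor on all ato-mutant arrays and at 9.58, 9.02 and 9.75 in UAS-ey leg discs, and rose by 3.28 in wing and 3.94 in antennal discs. Cpr49Ah, a cuticle protein, read 7.54, 7.63 and 7.40 in ato-mutant UAS-ey discs and 10.07, 10.53 and 10.26 in UAS-ey discs. Tektin-C, Cyp4p2 and Cpr49Ah were at the floor on every wild-type eye disc array.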

How the data were processed

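RNA of 25 disc samples was measured on Affymetrix Drosophila Genome 2.0 arrays, labelled in 2 cycles from 100 ng total RNA, per the labels' protocols. The log2 values were used as deposited by the authors. How they were summarized, scaled and floored is not stated in the labels, and the log2 scale was read from the values. Genes were named from GEO's platform annotation: of 18769 probe sets 13646 had 1 gene, 402 several and 4721 none. A gene was represented by its probe set with the highest mean over all arrays.

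Group means of 8 groups were fitted to all 25 arrays with limma 3.58.1 (lmFit and eBayes, R 4.3.3; 17 residual and 0.45 prior degrees of freedom), with Benjamini-Hochberg adjustment over all probe sets. All adjusted p-values are limma's, and each group of leg discs has n = 3. The submitters call the arrays biological triplicates, but nothing says how animals were pooled.

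Genes named were fixed eye and disc genes, the 15 largest rises and falls without array overlap, the 3 largest of uncharacterized genes, the 4 with the lowest p in each list, and the 6 largest differences from UAS-ey discs. Other genes named in the text were chosen after their values were seen. The members and lists were chosen with earlier results of these data known. On simulated data with 50 changed probe sets per size, 27 were recovered at a log2 change of 0.5, 44 at 1, 50 at 2 and 49 at 3, with 8 false calls. The simulation gave every group the same normal spread per probe set, whereas the real ato-mutant arrays differed more among themselves than wild-type leg arrays. Its false calls therefore do not measure the error of this comparison. Alternatives were quantile normalization, median centring, the arrays compared alone, the phe labelling control as a covariate, a variance trend, a filter on low probe sets, a replicate block and leaving out each array.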

Additional observations from a re-analysis of the deposited data

Results flagged for a closer look

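For 14 of 25 genes screened, the change in ato-mutant UAS-ey leg discs differed from the change in UAS-ey wing discs by a test of the difference itself (limma, adjusted over all probe sets, of which 6.63% were called). Each value is the leg change minus the wing change on the log2 scale. Among retinal genes it was 1.77 for toy (2.59 in ato-mutant leg, 0.82 in wing), 2.79 for Optix (3.72 and 0.93), 0.47 for tsh (0.56 and 0.09), -1.70 for dac (-0.38 and 1.32) and -1.03 for dan (0.88 and 1.90). toy, Optix and tsh rose more in the leg, and dac fell there.

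Among later eye and sensory genes it was -1.78 for gl (0.00 and 1.78), -2.0 for ato (-0.25 and 1.75), -0.96 for sens (-1.38 and -0.42) and -0.53 for sev (-0.10 and 0.43). Among the rest it was 1.37 for Ilp8 (2.20 and 0.83), 1.28 for upd1 (2.11 and 0.82), -3.86 for Tektin-C (0.00 and 3.86), 2.60 for GstD3 (-0.45 and -3.05) and -2.27 for superdeath (0.28 and 2.56). This contrast differs in disc as well as in the ato mutation. UAS-ey leg discs, without the mutation, changed by -2.96 for GstD3, 3.81 for Tektin-C, 3.13 for gl and 3.46 for superdeath, and so stood nearer to the wing change than the ato-mutant leg discs did in these 4 genes. For upd1, Ilp8, Optix and toy they changed by 2.75, 3.49, 2.38 and 1.85, above the wing change as in ato-mutant leg discs. Groups of 3 arrays were not tested for outliers.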

How the results depend on the processing

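With only the arrays compared, 1320 were called between ato-mutant UAS-ey and wild-type leg discs, 1969 against UAS-ey leg discs, 2268 between UAS-ey and wild-type leg discs, 138 in wing discs, 4114 in antennal discs and 306 for the leg change minus the wing change. In that fit 260 rises were at least 2-fold, and 5 common falls were called lower. With the phe control as a covariate 1948 were called between UAS-ey and wild-type leg discs. Centring gave 625 in wing discs. Leaving out low probe sets gave 302 rises of at least 2-fold, and quantile normalization gave 124 falls of at least 2-fold. Leaving out 1 array gave 2838 to 4069 calls between ato-mutant UAS-ey and wild-type leg discs and 834 to 2390 for the leg change minus the wing change (2390 without wild-type wing replicate 1).

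With the replicate number as a block 3961 were called. Same-numbered arrays of ato-mutant UAS-ey and wild-type leg discs had deviations correlated at -0.07, 0.06 and 0.13, and differently numbered ones at -0.23 to 0.16. The numbers thus gave no sign of pairing, but 3 arrays per group cannot exclude it. Over 148 named genes and 1900 pairs of gene and setting, 1757 kept direction and side of the threshold, 133 lost the call, 10 gained one and 0 reversed. Of the 133, 56 were in the fit to 6 arrays. The causes were not tested. List counts and common counts under alternatives were added after seeing the data. Values at the floor limit every fold given as a bound.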

Other observations

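For a few genes the UAS-ey leg discs stood apart from both other leg groups. chp read 11.93, 11.84 and 11.51 in ato-mutant UAS-ey discs, 9.45, 9.29 and 9.91 in UAS-ey discs and 11.69, 11.36 and 10.87 in wild-type discs, as log2 signals. pnr, a GATA factor of the dorsal thorax, read 10.95, 10.83 and 10.66 in ato-mutant UAS-ey discs, 7.65, 7.59 and 8.16 in UAS-ey discs and 10.54, 10.17 and 9.39 in wild-type discs. In both genes all UAS-ey arrays were below all other leg arrays, as for ey. These genes were chosen after their values were seen.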
